A study of Mus musculus with 12 samples.

Results

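Genes of 9 extracellular and membrane-bound serine proteases and their partners were followed through castration in luminal and basal cells of the mouse prostate. They were taken by symbol: the plasminogen activators Plau and Plat, the urokinase receptor Plaur, the secreted protease Htra1, the membrane-anchored proteases St14, Prss8, Hpn and Tmprss2, and the inhibitor Spint1. All 9 had at least 1 probe set assigned to that symbol alone, 15 probe sets in all out of 45101 on the array, and all 9 were among the 14645 genes tested of 18193 that had such a probe set. Where a gene had several, the probe set with the highest mean log2(signal + 16) stood for it.

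The mice were C57BL/6 males, either intact or castrated when 8 weeks old, and prostate tissue was collected 4 weeks after the operation. Lineage-negative, EpCAM-positive epithelial cells were separated by flow cytometry into CD49f-low (luminal) and CD49f-high (basal) fractions. Crossing fraction with castration gave 4 groups of 3 arrays, 1 for each biological replicate set, named below intact or castrated and luminal or basal. No genetic change is named in the labels, and how many animals made up a set is not given in the sources used here.

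Serine proteases outside the cell work in chains, in which 1 enzyme cuts and so activates the next. Urokinase (Plau) and tissue plasminogen activator (Plat) turn plasminogen into plasmin, which degrades fibrin and matrix, and the urokinase receptor (Plaur) holds urokinase at the cell surface. Matriptase (St14) and prostasin (Prss8) form such a pair on epithelial membranes, and the Kunitz-type inhibitor HAI-1 (Spint1) restrains matriptase. Hepsin (Hpn) and Tmprss2 are membrane proteases long studied in the prostate, where Tmprss2 is known as an androgen-regulated gene. Htra1 is a secreted protease that degrades matrix proteins.

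The labels were checked on textbook markers. Krt5, a keratin of basal cells, read 20.0 to 489 on intact luminal and 5.89 to 62.7 on castrated luminal arrays, against 15200 to 31800 on basal arrays. Trp63, the gene of the basal transcription factor p63, was at most 216 on luminal and at least 7020 on basal arrays. All 12 basal markers measured were lower, and 10 of 13 luminal markers higher, in luminal cells of intact mice. Pbsn, the androgen-dependent secreted protein probasin, fell from 56200 to 70200 on intact luminal arrays to between 4690 and 5950 after castration. It also read 4710 to 12400 on intact basal arrays and 19.1 to 134 on castrated basal arrays, so RNA of a luminal secretory gene was present in the intact basal sort. Log2 signals of arrays in the same group correlated across genes, which are not independent replicates, with r from 0.863 to 0.967. The median SD of a gene's log2 signal was 0.321 on castrated luminal arrays and 0.578 to 0.613 elsewhere. Array weights, which are low for arrays far from their group, were lowest for replicate 3 within all 4 groups (0.363 to 1.81). The 3' to 5' signal ratio of Gapdh, a measure of RNA length, was 4.18 to 8.70. The same ratio of Actb was 0.781 to 1.11, so the controls did not read alike.

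Cell type was the axis along which most of these genes differed. In intact mice 5 of the 9 were higher in luminal cells (Plau, Plat, St14, Prss8 and Spint1), 2 were higher in basal cells (Plaur and Htra1), and Hpn and Tmprss2 did not pass. Over all genes tested, 19.5% were called in that comparison (limma, Benjamini-Hochberg adjusted p under 0.05 over 14645 genes), 11% higher and 8.45% lower in luminal cells. In castrated mice 6 were higher in luminal cells, now with Hpn, and Plaur alone was lower, beside 18.4% called over all genes, 11.2% higher and 7.22% lower. Luminal and basal arrays did not overlap for 8 of the 9 genes in intact mice, where 32% of all genes behaved so, and for 7 in castrated mice, where 41.1% did. The median luminal minus basal difference of the 9 was 1.51 in intact and 2.44 in castrated mice, against 0.07 and 0.09 over all genes tested (log2). Leaving out replicate set 1 reduced both counts to 5. The comparisons share arrays in pairs, so their values are set side by side and are not independent. Every difference below is on the log2(signal + 16) scale, which understates the change of dim genes, with its standard error pooled over the 4 groups (8 residual degrees of freedom before moderation) and n = 3 arrays a group.

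**Figure D1:**
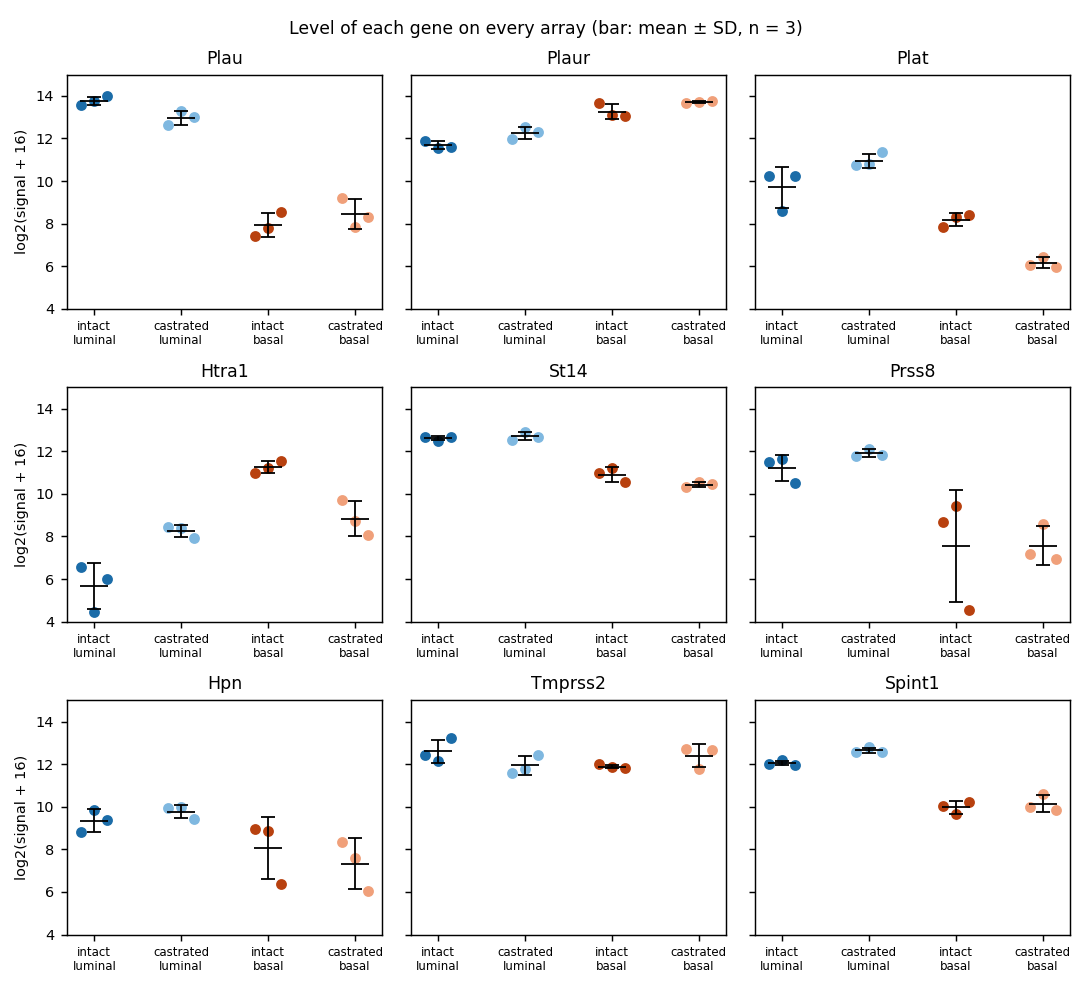
Log2(signal + 16) of the 9 genes on each of the 12 arrays, in 4 groups of 3. Points are arrays, and the bar is the mean with its SD. Plau, St14, Prss8 and Spint1 lie higher on luminal arrays and Plaur on basal arrays, whereas Htra1 ranges from 6.16 in signal on an intact luminal array to 2980 on an intact basal one, and Plat is lowest on castrated basal arrays.

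The urokinase pair was split between the cell types. Plau read 12200, 13700 and 16100 on intact luminal arrays and 6340, 9820 and 8090 on castrated luminal arrays. On basal arrays it read 157, 207 and 356 in intact and 574, 213 and 303 in castrated mice. Luminal and basal arrays did not overlap, and every luminal array lay over 10 times above every basal one. The luminal minus basal difference was 5.84 ± 0.37 in intact mice (57.2-fold, adjusted p = 5.33e-08, limma) and 4.51 ± 0.37 in castrated mice (22.7-fold, adjusted p = 4.4e-07).

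The second Plau probe set, 1422138_at, gave 4660 to 5800 on intact luminal arrays and 69.1 to 144 on intact basal arrays. Fitted among all 34945 probe sets with 1 symbol, of which 12.9% were called in intact and 11.5% in castrated mice, its luminal minus basal differences were 5.52 ± 0.58 and 2.99 ± 0.58, both called. The castrated basal arrays of this probe set were uneven, at 67.3, 637 and 498.

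Plaur, which encodes the receptor that Plau binds, went the other way. It read 3790, 3000 and 3090 on intact luminal and 4010, 5960 and 4990 on castrated luminal arrays. On basal arrays it read 12800, 8820 and 8390 in intact and 13000, 13200 and 13900 in castrated mice. All basal arrays lay above all luminal arrays. The basal level was 2.99-fold higher in intact mice (luminal minus basal -1.58 ± 0.21) and 2.71-fold higher in castrated mice (-1.44 ± 0.21), with limma adjusted p-values of 5.67e-05 and 0.000138. Each array reads a pool of sorted cells, so a smaller number of cells with the transcript and less transcript per cell cannot be told apart, here and below.

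The 300 bases around the RefSeq start site of Plaur (GRCm38.p6, chr7:24462233-24462532, plus strand, 250 bases before the start and 50 after) are shown because it was the only gene higher in basal cells in both intact and castrated mice. Beside it stands the window of Spint1 (chr2:119237110-119237409, plus strand), which ran the opposite way. Capitals mark the AP-1 motif TGANTCA, searched on both strands along with the androgen receptor half-site AGAACA, which neither window held.
Plaur: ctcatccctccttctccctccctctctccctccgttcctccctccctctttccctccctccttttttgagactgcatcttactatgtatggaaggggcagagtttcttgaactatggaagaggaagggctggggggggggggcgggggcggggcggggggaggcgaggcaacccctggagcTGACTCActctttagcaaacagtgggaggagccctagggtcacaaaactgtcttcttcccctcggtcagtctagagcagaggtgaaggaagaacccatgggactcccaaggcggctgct
Spint1: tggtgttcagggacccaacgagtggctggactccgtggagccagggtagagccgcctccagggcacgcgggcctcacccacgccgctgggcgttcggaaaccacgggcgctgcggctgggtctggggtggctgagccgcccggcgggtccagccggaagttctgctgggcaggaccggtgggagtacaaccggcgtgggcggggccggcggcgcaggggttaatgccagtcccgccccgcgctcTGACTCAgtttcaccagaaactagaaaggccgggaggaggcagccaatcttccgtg
The Plaur motif lies at positions -69 to -63 from the start site and the Spint1 motif at -6 to 1. Of 32851 promoter windows of the same length 7.81% held this motif and 19% the half-site, so a match is a description of the letters. Windows of 5 of the 9 genes were in the table: Plaur, Htra1, Hpn (2 windows), Tmprss2 and Spint1. None of these 6 windows held AGAACA or the full palindromic androgen response element, which 0.00913% of all windows held.

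Matriptase, prostasin and their inhibitor were all luminal-high. St14 read 6450, 5750 and 6420 on intact luminal and 5930, 7730 and 6510 on castrated luminal arrays. Basal arrays gave 1990, 2350 and 1470 in intact and 1270, 1470 and 1380 in castrated mice. Luminal and basal arrays did not overlap, and the luminal level was 3.24-fold higher in intact (1.70 ± 0.24) and 4.83-fold higher in castrated mice (2.27 ± 0.24).

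Spint1, which encodes the inhibitor HAI-1, read 4080, 4650 and 4020 on intact luminal and 6050, 7090 and 6110 on castrated luminal arrays. Basal arrays gave 1040, 783 and 1170 in intact and 1000, 1530 and 918 in castrated mice. Its luminal excess was 2.09 ± 0.27 (4.25-fold) in intact and 2.50 ± 0.27 (5.65-fold) in castrated mice, and every luminal array was above every basal array. Of the 9 genes, St14 and Spint1 had the most alike profiles over the 12 arrays, with a root mean square difference of 0.442 log2 units once each gene's mean was taken off. Plau and Htra1 were the least alike, at 4.46.

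Prss8 (prostasin) read 2880, 3220 and 1450 on intact luminal and 3510, 4430 and 3670 on castrated luminal arrays. In basal cells it read 395, 674 and 7.03 in intact mice, the last array lying at percentile 15 of its signals, and 128, 373 and 106 in castrated mice. No basal array reached a luminal one. The difference was 3.68 ± 0.87 in intact mice (adjusted p = 0.00626, limma) and 2.17 without intact basal replicate 3, and 4.35 ± 0.87 in castrated mice. Without replicate set 1 both fell short of the threshold, at adjusted p-values of 0.0528 and 0.0506.

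Hpn (hepsin) was dimmer and more uneven. Its signals were 428, 916 and 653 on intact luminal and 958, 985 and 665 on castrated luminal arrays. Basal arrays gave 483, 446 and 66.2 in intact and 314, 176 and 50.2 in castrated mice, so that replicate 3 was lowest in both basal groups. Intact luminal and intact basal arrays overlapped, and their difference of 1.29 ± 0.69 did not pass (adjusted p = 0.214, 95% interval -0.16 to 2.74). The castrated groups did not overlap, and luminal cells were 5.41-fold higher (2.44 ± 0.69, adjusted p = 0.0193). That call was lost without castrated basal replicate 3 (1.79, adjusted p = 0.0881), without castrated luminal replicate 1 (0.0722) or without castrated luminal replicate 2 (0.0733). It was also lost without replicate set 1 or 2 (limma adjusted p up to 0.138).

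**Figure D2:**
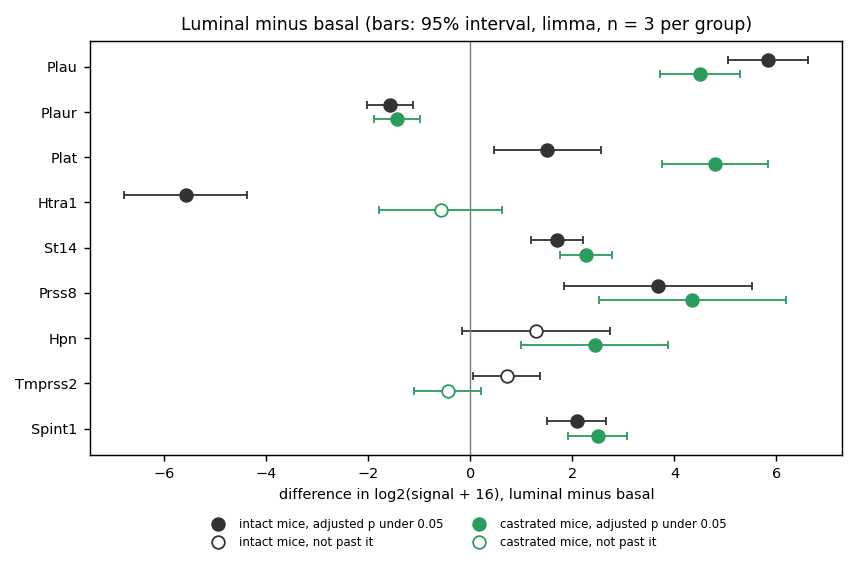
Luminal minus basal difference in log2(signal + 16) for the 9 genes, in intact (dark) and castrated mice (green), with 95% intervals from limma and n = 3 arrays per group. Filled points passed an adjusted p of 0.05; Plau had the largest positive difference in intact mice, 5.84, and Htra1 the largest negative one, -5.58.

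For Tmprss2 the answer depended on the probe set. The set with the highest mean, 1458347_s_at, read 5430, 4580 and 9490 on intact luminal and 3090, 3510 and 5550 on castrated luminal arrays, and 4040, 3680 and 3610 on intact basal and 6740, 3450 and 6540 on castrated basal arrays. It passed in none of the 5 comparisons. Its luminal minus basal difference was 0.71 ± 0.31 in intact mice (adjusted p = 0.127), where the groups did not overlap, and -0.44 ± 0.31 in castrated mice (adjusted p = 0.365), where they did. The suffix s marks a probe set whose probes can match more than 1 transcript.

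The other Tmprss2 probe sets gave another order. Probe set 1449369_at read 3540, 3640 and 3360 on intact luminal and 2760, 3190 and 2420 on castrated luminal arrays, against 784, 639 and 1310 on intact basal and 1030, 950 and 413 on castrated basal arrays. No basal array reached a luminal one, and the differences of 1.99 ± 0.36 in intact and 1.88 ± 0.36 in castrated mice both passed when every probe set was fitted. Probe set 1419154_at likewise gave 2.30 ± 0.38 and 1.73 ± 0.38, both called. The fourth, 1459510_at, was dim, lying under the 40th percentile on 5 arrays, and passed nowhere. With the mean of its probe sets, Tmprss2 was higher in luminal cells of intact mice at 1.40 (adjusted p = 0.00727).

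**Figure D3:**
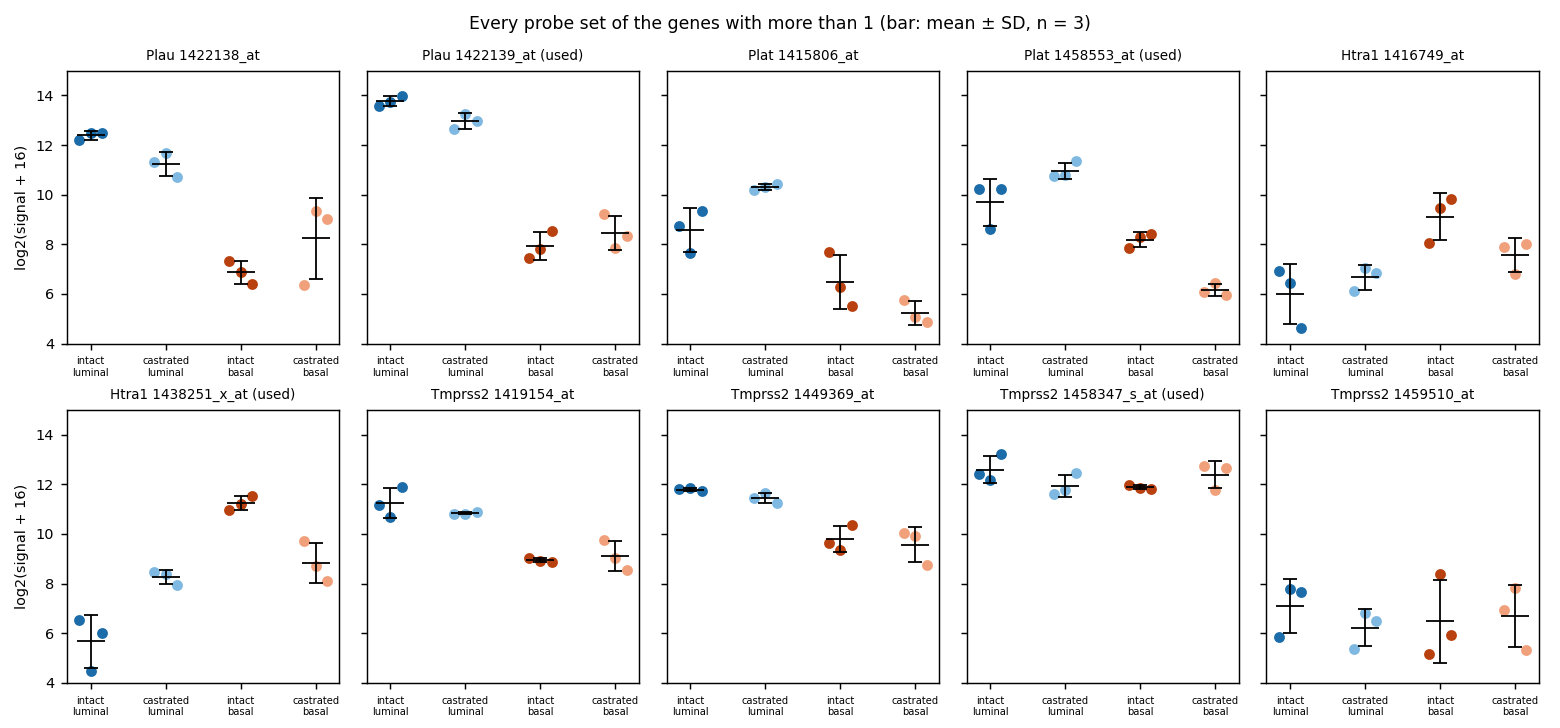
Log2(signal + 16) of every probe set of the 4 genes that have more than 1, on the 12 arrays, with mean and SD for each group of 3. The probe sets of Plau and of Plat rank luminal above basal alike, whereas Tmprss2 1458347_s_at lacks the luminal excess of 1419154_at and 1449369_at.

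Castration was followed by few changes that passed, and Htra1 and Plat carried them all. In luminal cells Htra1 rose and the other 8 genes did not pass, beside 5.86% called over all genes, 2.9% higher and 2.96% lower. In basal cells Htra1 and Plat fell and 7 did not pass, beside 2.62% called over all genes, 1.12% higher and 1.5% lower. Castrated and intact arrays did not overlap for 6 of the 9 genes in luminal cells, where 31.8% of all genes behaved so, and for 3 in basal cells, where 19.8% did. The median change of the 9 was 0.58 in luminal and 0.02 in basal cells, against -0.09 and -0.11 over all genes (log2). Under median centring of the arrays the median over all genes moved to 0.29 in luminal and 0.23 in basal cells. The split of calls in luminal cells went from 424 higher and 434 lower to 1021 and 252, and in basal cells from 164 and 220 to 511 and 115. Each of the 9 genes kept the sign of its change in every comparison under median centring and under quantile normalization.

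Htra1 had the largest castration difference of the 9 genes in each cell type. It read 77.4, 6.16 and 47.9 on intact luminal arrays, of which the latter pair lay under the 40th percentile of their arrays, and 336, 316 and 228 on castrated luminal arrays. On basal arrays it read 1990, 2380 and 2980 in intact and 822, 402 and 256 in castrated mice. The order of the groups was thus intact basal, castrated basal, castrated luminal and intact luminal, and only the middle pair overlapped. Htra1 rose in luminal cells (2.58 ± 0.57, adjusted p = 0.011, limma) and was 5.33-fold lower in castrated basal cells (-2.41 ± 0.57, adjusted p = 0.0346). Luminal minus basal, Htra1 differed by -5.58 ± 0.57 in intact mice. The size of that difference hung on the constant added, and was -6.33 with 1 and -4.58 with 64 added. In castrated mice it was -0.58 ± 0.57 (adjusted p = 0.536, 95% interval -1.79 to 0.62).

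The castration effects of Htra1 in the cell types differed by 5 ± 0.81 (luminal minus basal, adjusted p = 0.00521, limma), in a comparison in which 1.15% of all genes were called, 0.676% with a higher and 0.471% with a lower effect in luminal cells. Plat was the other of the 9 called there. This difference lost its call without replicate set 1 (adjusted p = 0.0597) or 2 (0.175). The rise in luminal cells lost its call without castrated luminal replicate 1 (adjusted p = 0.0585) or 2 (0.0556), and without replicate set 1 (0.0726) or 2 (1.92, adjusted p = 0.233). Its size hung on the constant added, 3.27 with 1 and 1.77 with 64. The fall in basal cells lost its call in 8 of the 12 fits that left out 1 array (each castrated luminal and intact basal array, and castrated basal 2 and 3), with values from -2.55 to -2.04 in those fits. It was also lost with 1 added, without the intensity trend, with array weights and without each replicate set in turn. Without replicate set 3 the luminal rise was 2.91 (adjusted p = 0.0281) and the basal change -1.89 (adjusted p = 0.153).

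The second Htra1 probe set, 1416749_at, was not called for castration in either cell type, where 3.71% (luminal) and 1.32% (basal) of all probe sets fitted singly were, nor for the difference of effects, where 0.558% were. It read 105, 70.7 and 8.54 on intact luminal and 52.7, 116 and 99.8 on castrated luminal arrays, a difference of 0.67 ± 0.70 that did not pass. On basal arrays it went from 248, 695 and 895 to 223, 95.1 and 244, a difference of -1.54 ± 0.70 that did not pass either. The basal excess in intact mice was called with both probe sets (-3.13 ± 0.70 here). The suffix x of the set used, 1438251_x_at, marks probes that can match other sequences as well. Averaging both, the luminal rise was 1.63 (adjusted p = 0.0519) and the basal fall -1.98 (adjusted p = 0.0399).

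The promoter window of Htra1 (GRCm38.p6, chr7:130935953-130936252, plus strand) is printed because this gene moved in opposite directions in the 2 cell types. It held neither the AP-1 motif nor the androgen receptor half-site, so no base is in capitals.
Htra1: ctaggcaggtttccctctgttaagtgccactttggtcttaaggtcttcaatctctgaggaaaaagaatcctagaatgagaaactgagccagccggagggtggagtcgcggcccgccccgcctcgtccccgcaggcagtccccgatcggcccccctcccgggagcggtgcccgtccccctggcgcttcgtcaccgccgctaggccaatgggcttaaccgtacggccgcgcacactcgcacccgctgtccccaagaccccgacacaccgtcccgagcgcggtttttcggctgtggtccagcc
This window was rich in G and C, 65% against 59.3% for Plaur and 69.7% for Spint1.

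Plat, the tissue plasminogen activator, fell in basal cells. It read 216, 299 and 326 on intact basal and 51.1, 70.9 and 46.1 on castrated basal arrays, and 1200, 372 and 1200 on intact luminal and 1690, 1750 and 2580 on castrated luminal arrays. No group overlapped another. The basal fall was 4.1-fold (-2.04 ± 0.50, adjusted p = 0.0377), and the luminal change of 1.26 ± 0.50 did not pass (adjusted p = 0.163). The luminal excess was 1.51 ± 0.50 in intact mice (2.84-fold, adjusted p = 0.0408) and 4.80 ± 0.50 in castrated mice (27.9-fold). The castration effects differed by 3.29 ± 0.70 (adjusted p = 0.029).

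The Plat calls close to the threshold were fragile. The basal fall lost its call in 9 of the 12 fits without 1 array (each castrated luminal array and each basal array, adjusted p up to 0.0941). It was also lost without each replicate set in turn (up to 0.215) and in 8 of 12 other settings (up to 0.186). These were quantile normalization, median centring, 64 added, the basal arrays alone, no intensity trend, array weights, the mean of probe sets and the replicate block (-2.04, adjusted p = 0.0503). The luminal excess in intact mice lost its call in 8 of the 12 fits without 1 array (intact luminal 1 and 3, each castrated luminal and each intact basal array, adjusted p up to 0.161). It was also lost without replicate set 1 or 3 (up to 0.388), with array weights and with the intact arrays alone. The difference of castration effects lost its call in 6 of those 12 fits (intact luminal 2, each castrated luminal array, intact basal 2 and 3, adjusted p up to 0.124). It was also lost with quantile normalization, without the intensity trend and without each replicate set in turn. The luminal excess in castrated mice passed in all 12. Probe set 1415806_at read 415, 183 and 640 on intact luminal, 1140, 1240 and 1360 on castrated luminal, 188, 62.4 and 29.9 on intact basal and 38.8, 17.2 and 13.4 on castrated basal arrays. It had the same order of groups, with a luminal excess called in intact (2.09 ± 0.63) and castrated mice (5.06 ± 0.63), while its castration effects of 1.72 ± 0.63 and -1.26 ± 0.63 did not pass. Their difference, 2.98 ± 0.90, did not pass either (limma adjusted p = 0.185).

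**Figure D4:**
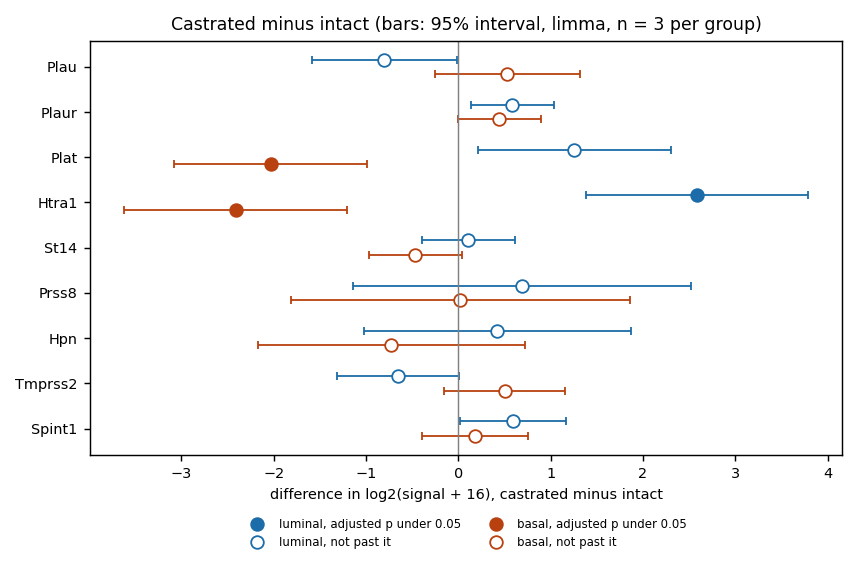
Castrated minus intact difference in log2(signal + 16) for the 9 genes, in luminal (blue) and basal cells (orange), with 95% intervals from limma and n = 3 arrays per group. Filled points passed an adjusted p of 0.05: Htra1 in luminal cells at 2.58, and Htra1 and Plat in basal cells at -2.41 and -2.04.

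The other genes moved little or unevenly with castration. Plau in luminal cells had a difference of -0.80 ± 0.37 with groups that did not overlap, and did not pass (adjusted p = 0.246). It passed when only the luminal arrays were fitted (adjusted p = 0.0314) and with the mean of its probe sets (-0.98, adjusted p = 0.0452). Plaur had 0.59 ± 0.21 in luminal and 0.44 ± 0.21 in basal cells, neither passing, and its groups did not overlap in either. Spint1 had 0.59 ± 0.27 in luminal cells, again without overlap. Under median centring Plaur and Spint1 passed in luminal cells, at 0.97 each (adjusted p-values 0.0163 and 0.0469).

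The changes of St14, 0.11 ± 0.24 in luminal and -0.47 ± 0.24 in basal cells, had 95% intervals of -0.40 to 0.61 and -0.97 to 0.04. Prss8 had 0.69 ± 0.87 and 0.02 ± 0.87, with an interval of -1.81 to 1.85 in basal cells, so changes of over 3-fold either way were within its error. Hpn had 0.42 ± 0.69 and -0.73 ± 0.69. Tmprss2 had -0.65 ± 0.31 and 0.50 ± 0.31 by the probe set used, and -0.39 ± 0.38 and 0.17 ± 0.38 by 1419154_at, none of them called.

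Markers of other cell types moved as well. Beside the counts below, 5.86% of all genes were called for castration in luminal and 2.62% in basal cells. Between cell types 19.5% were called in intact and 18.4% in castrated mice. The mean log2 level of 13 fibroblast genes was 7.89 to 8.96 on intact luminal, 5.71 to 5.77 on castrated luminal, 9.45 to 9.83 on intact basal and 7.47 to 7.98 on castrated basal arrays. After castration 7 of the 13 fell in luminal cells and 4 in basal cells. The basal falls of Htra1 and Plat thus ran beside a fall of fibroblast markers, and the luminal rise of Htra1 ran against it. Between cell types 4 of the 13 were basal-high in intact and 6 in castrated mice, beside the basal excess of Plaur. The basal excess of Htra1 in intact mice ran beside it too. Endothelial markers (8 measured) had means of 6.46 to 7.27 on intact and 5.88 to 6.05 on castrated basal arrays, with none called. The mean of the leukocyte and myeloid markers (10 measured) lay between 5.62 and 7.41 on all arrays, and 1 marker rose in each cell type. Of the 10, 1 was basal-high in intact and 3 in castrated mice, again beside the basal excess of Plaur. Smooth muscle (6 measured, means of 5.5 to 8.3), mast cell (4 measured, means of 5.03 to 7.16) and neutrophil markers (1 measured, 4.19 to 9.55) had no call for castration. Between cell types 1 smooth muscle marker was basal-high in castrated mice, and 1 mast cell marker was luminal-high in intact and 1 in castrated mice. Urothelial markers (5 measured) had means of 8.23 to 8.31 on intact luminal and 8.85 to 9.37 on castrated luminal arrays, where 1 of the 5 rose, beside the rise of Htra1. Their means were 6.37 to 6.86 on intact basal and 5.83 to 7.46 on castrated basal arrays with none called for castration, and 3 of the 5 were luminal-high in intact and 3 in castrated mice, beside the luminal excess of the proteases. The mean of the seminal vesicle genes (6 measured) went from 13.58 to 14.87 on intact luminal arrays to 8.96 to 9.77 on castrated ones, where all 6 fell. On basal arrays their mean went from 9.8 to 11.07 in intact to 6.29 to 7.06 in castrated mice. There 3 of the 6 fell, beside the basal falls of Htra1 and Plat. All 6 were luminal-high in intact mice. The part of these cells in the results was not tested.

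The wider protease network was described from lists of genes, by counts from the same fit. Over all genes, 19.5% were called between cell types in intact and 18.4% in castrated mice. For castration 5.86% were called in luminal and 2.62% in basal cells, so no call among 11 genes in basal cells lies near that share. Of 11 measured partners of the plasminogen system, 3 were lower and 0 higher in luminal than in basal cells of intact mice. They were S100a10, a subunit of a plasminogen receptor (-1.29 ± 0.19), the endocytic receptor Lrp1 (-2.05 ± 0.65) and the integrin subunit Itgav (-1.02 ± 0.22). With castration 2 rose in luminal cells, Itgav (1.10 ± 0.22) and the annexin Anxa2 (0.88 ± 0.25), and 2 fell, Lrp1 (-2.32 ± 0.65) and the matrix metalloproteinase Mmp2 (-3.10 ± 0.65). None of the 11 passed in basal cells. In castrated mice 3 of the 11 were lower in luminal than in basal cells and 0 higher. They were Lrp1 (-4.18 ± 0.65), Mmp2 (-2.55 ± 0.65) and S100a10 (-1.05 ± 0.19). The median of the list was -0.56 between cell types in intact mice, against 0.07 over all genes.

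Among 7 other measured genes listed as membrane-anchored proteases, Tmprss13 was higher in luminal cells of intact (2.38 ± 0.36) and castrated mice (3.21 ± 0.36). Over all genes 19.5% and 18.4% were called in these comparisons, and for castration 5.86% in luminal and 2.62% in basal cells. Tmprss13 read 1290 to 1500 on intact luminal arrays and 238 to 286 on intact basal arrays. Prss22, a secreted protease counted in this list, rose in luminal cells with castration, from 801, 843 and 274 to 2370, 2790 and 3210 (2.24 ± 0.49). It was also luminal-high in castrated mice (1.53 ± 0.49), and the remaining 5 genes passed nowhere. Another 10 genes of that list were too dim to be tested.

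Of 14 measured secreted proteases, 1 rose and 4 fell in castrated luminal cells, where 5.86% of all genes were called. None passed in basal cells, near the 2.62% called over all genes. Prss23 rose from 291, 308 and 298 to 1800, 1280 and 2220 (2.46 ± 0.35). The complement proteases C1s1 (-7.05 ± 0.61) and C1ra (-5.50 ± 0.67) fell from 3070 to 6420 and from 870 to 2300 to at most 51.1 and 28.3, and the other 2 that fell were Htra4 (-2.10 ± 0.56), a relative of Htra1, and Klk8 (-2.28 ± 0.63), both named after their values were seen. C1s1 and C1ra were also luminal-high in intact mice, by 4.38 ± 0.61 and 4.10 ± 0.67. After castration none of the 14 differed between cell types at the threshold, where 18.4% of all genes did.

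The list of inhibitors had the highest median luminal excess of the 5 lists. Not every gene in it inhibits serine proteases. Cst3 inhibits cysteine proteases, and Serpinb5 and Serpinh1, the 2 lower in intact mice, are serpins that do not inhibit proteases. Over all genes, 19.5% were called between cell types in intact and 18.4% in castrated mice. Of 22 measured, 9 were higher and 2 lower in luminal cells of intact mice, with a median of 1.11 against 0.07 over all genes, and 7 and 2 in castrated mice. Among the former, Spink8 (5.27 ± 0.59) and Wfdc15b (4.59 ± 0.60) had the lowest adjusted p, and Serpinb5, the epithelial serpin maspin, was basal-high (-3.62 ± 0.46) like the collagen chaperone Serpinh1, whose difference was -4.83 ± 0.59 in castrated mice. With castration 0 rose and 7 fell in luminal cells, where 5.86% of all genes were called. Among the 7 were Spink8 (-3.49 ± 0.59), Wfdc3 (-5.28 ± 1.11) and Serping1, the inhibitor of C1r and C1s (-3.31 ± 0.64). Serpinh1 (-2.70 ± 0.59) and Cst3 (-0.68 ± 0.20), named for this fall after their values were seen, were also among them. Serping1 was also the 1 member of the 22 that fell in basal cells (-2.60 ± 0.64), where 2.62% of all genes were called. Wfdc3 read 6710, 6130 and 188 on intact luminal arrays, the last far below the others.

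Of 16 measured substrates and receptors of the membrane proteases, 5 were lower and 2 higher in luminal cells of intact mice. Over all genes 19.5% were called in that comparison, and for castration 5.86% in luminal and 2.62% in basal cells. Claudin 7 (Cldn7), a tight junction protein that binds EpCAM, was luminal-high (1.52 ± 0.26). The laminin-332 chain Lamb3 (-3.99 ± 0.60) and the receptor Egfr (-4.97 ± 0.65) were basal-high. In castrated mice 8 of the 16 were lower in luminal cells and 1 higher, beside 18.4% called over all genes. The median of the list was -1.05 in intact and -1.64 in castrated mice, against 0.07 and 0.09 over all genes. After castration the hepatocyte growth factor receptor Met (1.42 ± 0.26) and Egfr (3.06 ± 0.65) rose in luminal cells and the binding protein Igfbp5 fell (-2.33 ± 0.35). Epcam and Cldn7 are also luminal markers and Lamb3 a basal one in the lists used here. In basal cells Epcam, itself used in the sort, rose (0.73 ± 0.14).

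Genes with the most similar course over the 12 arrays were sought for each of the 9, by the root mean square difference of log2 values after each gene's mean was taken off. Closest to Plau were Aass (0.542) and Prom1 (0.623), against a spread of Plau itself of 2.64. Plaur was closest to Nxn (0.206) and Atxn7 (0.217), with a spread of 0.822. For Plat they were Pik3ap1 (0.655) and Lcp1 (0.666), and for Htra1 Caprin2 (0.908) and Car9 (0.91), against a spread of 2.06 for Htra1. Fuca2 stood among the closest of both St14 (0.296) and Spint1 (0.329). Scamp1 (0.28) was the nearest to St14, Slc35a1 (0.336) the next to Spint1, and Acss1 (0.655) and Ptprj (0.795) the nearest to Prss8. Cipc (0.454) and Ankrd46 (0.458) were nearest to Hpn, and Hagh (0.305) and Usp9x (0.309) to Tmprss2, whose own spread was only 0.472.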

How the data were processed

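RNA of sorted luminal and basal cells was amplified (NuGEN Pico) and hybridised to 12 Affymetrix arrays, 3 in each of 4 groups taken from the sample labels. The authors deposited 1 linear intensity per probe set and array, made with MAS5 per the submitters' processing notes (version not given in the sources used here). Each array has a trimmed mean of 500 and a median between 57.7 and 100. Read counts do not exist for arrays, so 3 arrays a group limit the precision.

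Of 45101 probe sets, 64 controls were left out. By the platform table, 34945 carried 1 gene symbol, 932 several and 9160 none. Genes were tested on log2(signal + 16) if above the 40th percentile of the array on at least 3 arrays (14645 of 18193). A 4-group linear model was fitted with limma 3.58.1 (eBayes with intensity trend, R 4.3.3), with Benjamini-Hochberg adjustment over all genes tested and a threshold of 0.05. It was tested on simulated data. Probe sets were also fitted singly, over all 34945. Other scalings, constants, filters, a replicate block and left-out arrays were tried.

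Animals were matched within 3 sets per the series' design text, and the titles number the arrays 1 to 3. Deviations from the group means of same-numbered arrays correlated from -0.00723 to 0.0258. The model has no block, and a fit with one is an alternative. The 9 genes, the 5 lists and the marker lists were chosen with earlier results of these data known. Named besides the 9 were up to 3 called genes of each list per comparison with the lowest adjusted p, the 2 genes most alike in course to each of the 9, and label markers. Promoter windows were taken from RefSeq (GRCm38.p6), and 5 of the 9 genes matched by symbol. Protein sequences were not used here.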

Additional observations from a re-analysis of the deposited data

Results flagged for a closer look

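The castration effect differed between luminal and basal cells by the interaction test of the same model (limma, adjusted over 14645 genes) for 2 of the 9 genes. Over all genes tested, 1.15% were called in that comparison. Htra1 had an effect 5 higher in luminal cells on the log2 scale (adjusted p = 0.00521), 2.58 against -2.41, and all 3 arrays of each castrated group lay beyond all 3 intact arrays, upwards in luminal and downwards in basal cells. Plat had an effect 3.29 higher in luminal cells (adjusted p = 0.029), 1.26 against -2.04. Leaving out 1 array or 1 replicate set lost the call in 2 of 15 fits for Htra1 and in 9 of 15 for Plat. Neither second probe set was called for this difference, where 0.558% of all probe sets fitted singly were. It was 2.22 ± 0.99 for Htra1 (1416749_at, limma adjusted p = 0.435) and 2.98 ± 0.90 for Plat (1415806_at, adjusted p = 0.185).

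Among the listed genes, the integrin subunit Itgav had an effect 1.42 higher in luminal cells (adjusted p = 0.0362). The complement proteases C1s1 and C1ra had effects of -5.40 (adjusted p = 0.0051) and -4.23 (adjusted p = 0.0411), lower in luminal cells.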

How the results depend on the processing

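The counts of the 9 genes called between cell types, 7 in intact and 7 in castrated mice, ranged from 5 to 7 when 1 array or 1 replicate set was left out, and every alternative kept them within 1.5 times. For castration in luminal cells the count of 1 became 3 with median centring, 2 with the luminal arrays alone and 2 with array weights, and 0 to 1 on leaving arrays out. In basal cells the count of 2 became 1 with quantile normalization, median centring, 64 added, the basal arrays alone or the mean of probe sets, where Plat was lost. With 1 added it also became 1, and Htra1 was lost. It became 0 without the intensity trend or with array weights, and 0 to 2 on leaving arrays out. The interaction count of 2 became 1 with quantile normalization or without the intensity trend, and 0 to 2 on leaving arrays out. Plau was not called for the interaction (-1.33 ± 0.53, limma adjusted p = 0.289), nor by its second probe set (-2.53 ± 0.81, adjusted p = 0.223). Over all comparisons, 3 results of the 9 genes not called above passed with the mean of probe sets, and 2 lost their call. With the replicate block the count in basal cells became 1, and the block changed no other call among the 9 genes. The random block changed none. The luminal minus basal difference of Tmprss2 in castrated mice, -0.44, turned to 1.73 with probe set 1419154_at and 1.88 with 1449369_at. The causes were not tested. Over all genes, calls for castration in luminal cells went from 858 to 555 without the intensity trend and 1945 with array weights, in basal cells from 384 to 155 and 202, and for the interaction from 168 to 27 and 246. Probe sets fitted singly give no count of genes, and fits of 2 groups give no interaction. Signals under the 40th percentile limit Htra1 in intact luminal cells and Prss8 in intact basal cells.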
